A study of Homo sapiens with 80 samples.

Results

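The transcripts of the hypoxia inducible factor (HIF) axis were followed in Jurkat T cells (clone E6-1), an established human leukemic T lymphocyte line, after exposure to hypergravity or heat. The 10 members, of 60663 genes with a usable record, were taken by their Ensembl identifiers: HIF1A and its partner ARNT, the hydroxylases HIF1AN, EGLN1, EGLN2 and EGLN3, the ubiquitin ligase subunit VHL, and the HIF targets PDK1, BNIP3 and SLC2A3. None of them was too low to test, since all 10 passed the filter on low counts in all 16 comparisons, and the lowest count of a member in any library used was 74, for EGLN3. RNA depleted of ribosomal RNA was sequenced from 80 libraries in 15 groups of the same line, without a difference in genotype. At 9 g, cells in pipettes were spun in a pipette centrifuge. The groups hypg20s and hypg75s were spun for 20 s and 75 s, and the groups hypg3, hypg5, hypg7, hypg9 and hypg15 for the number of minutes in their names, each after a time at 1 g that filled 15 min in all, and they were compared with cells kept at 1 g for 15 min (Ctrl). Cells spun for 60 min (hypg60) were compared with cells kept at 1 g for 60 min (Ctrl60), and each of these groups had 6 libraries. The deposited column names of Ctrl60 mention HEPES, and those of hypg60 do not. The sample titles do not say whether HEPES differed, and such a difference could not be told apart from the 60 min exposure. In a second experiment with 4 libraries a group, cells were spun for 5 min at 300 g in a tabletop centrifuge and lysed 1 min (wait1min), 4 min (wait4min) or 15 min (wait15min) after the stop, or were heated for 5 min in a 42 °C water bath (heat), and each group was compared with uncentrifuged cells (ctrl300g). The sources used here do not say whether libraries of a group came from separate cultures, so p-values measure only the spread between these samples, which may be technical.

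HIF is a transcription factor made of an oxygen-regulated alpha subunit, such as the product of HIF1A, and a stable beta subunit encoded by ARNT. When oxygen is present, prolyl hydroxylases of the EGLN family mark the alpha subunit for the VHL ubiquitin ligase, which sends it to the proteasome, and the asparaginyl hydroxylase encoded by HIF1AN keeps it from binding coactivators. When the alpha subunit escapes, the dimer binds short elements with the core ACGTG and raises genes of glycolysis, glucose uptake and mitophagy, and much of this control acts on the protein, which RNA counts do not measure.

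In GRCh38, counts were summed over the exons of HIF1A (ENSG00000100644) at chr14:61695513-61748259 on the plus strand, ARNT (ENSG00000143437) at chr1:150809713-150876708 on the minus strand and HIF1AN (ENSG00000166135) at chr10:100529072-100559998 on the plus strand. The hydroxylases and the ligase subunit lie apart from these, with EGLN1 (ENSG00000135766) at chr1:231363751-231422287 on the minus strand, EGLN2 (ENSG00000269858) at chr19:40798996-40808434 on the plus strand, EGLN3 (ENSG00000129521) at chr14:33924227-34462774 on the minus strand and VHL (ENSG00000134086) at chr3:10141778-10153667 on the plus strand. The targets are PDK1 (ENSG00000152256) at chr2:172555373-172608669 on the plus strand, BNIP3 (ENSG00000176171) at chr10:131966455-131982013 on the minus strand and SLC2A3 (ENSG00000059804) at chr12:7919230-7936187 on the minus strand.

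Promoter sequence was taken from RefSeq (GRCh38.p14), in which 8 of the 10 members were matched, by 11 promoters; VHL and SLC2A3 were not matched. The letters ACGTG were searched on both strands in the 250 bases before each start site, and CACGTG counts as a match on each strand. They were found in 4 of the 11 promoters, 1 each of EGLN1, EGLN2, BNIP3 and PDK1, and in 18.5% of 35116 promoters of this length. HIF1A is shown because it holds no match and had the largest change of a member, before the correction for GC content given below. The other stretches are shown for their matches, in capitals. The matches lie 13 bases before the start site in EGLN1, 134 in BNIP3, 49 in EGLN2, and 17 and 8 in PDK1. A match describes the letters and is not evidence of binding. All stretches run 5′ to 3′ on the strand of the gene; HIF1A and EGLN1 are whole windows of 250 bases, BNIP3 is the 160 bases outside the annotated gene, and EGLN2 and PDK1 are 30 bases around the match.
HIF1A (chr14:61695263-61695512, plus strand): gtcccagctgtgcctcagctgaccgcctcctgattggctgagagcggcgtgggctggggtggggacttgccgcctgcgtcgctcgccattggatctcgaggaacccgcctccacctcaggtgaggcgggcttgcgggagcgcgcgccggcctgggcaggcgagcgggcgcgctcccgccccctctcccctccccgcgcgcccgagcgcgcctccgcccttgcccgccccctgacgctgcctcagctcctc
EGLN1 (chr1:231422288-231422537, minus strand): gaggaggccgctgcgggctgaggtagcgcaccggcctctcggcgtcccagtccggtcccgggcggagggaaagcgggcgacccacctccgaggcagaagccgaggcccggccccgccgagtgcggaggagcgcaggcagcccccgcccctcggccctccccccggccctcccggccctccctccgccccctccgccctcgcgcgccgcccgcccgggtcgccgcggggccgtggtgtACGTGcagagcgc
BNIP3 (chr10:131982014-131982173, minus strand): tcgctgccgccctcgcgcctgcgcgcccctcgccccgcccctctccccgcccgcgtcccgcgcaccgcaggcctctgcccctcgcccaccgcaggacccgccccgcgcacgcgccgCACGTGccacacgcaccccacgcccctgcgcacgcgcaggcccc
EGLN2 (chr19:40799130-40799159, plus strand): gcggggcgcggtCACGTGcccaccgggcga
PDK1 (chr2:172556060-172556089, plus strand): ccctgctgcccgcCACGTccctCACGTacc

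Library 75 of hypg15 was left out because it lacked any count on 9 chromosomes (4 to 9, X, Y and MT), none of which carries a member. The total counts of the other 59 libraries at 9 g lay between 22634465 and 41893490, and those of the 20 libraries of the second experiment between 24417717 and 41220541. All 10 T cell markers examined were present, with a summed level of 2944 to 4364 CPM (counts scaled to library size by edgeR) over the group means, against 30.4 to 65.5 CPM for 3 B cell markers, of which 2 never passed 1 CPM, 0.31 to 0.55 CPM for 3 monocyte markers, 0.46 to 0.75 CPM for 2 natural killer cell markers and 0 to 0.07 CPM for 2 erythroid markers. Over all genes tested, the log2 fold change followed the GC content of the gene, with Spearman's rho between 0.101 (hypg7) and 0.675 (hypg3) at 9 g and between -0.686 (wait1min) and -0.658 (wait15min) at 300 g. HIF1A and PDK1 are the members of lowest GC content, at 36.4% and 39.8%, and EGLN2, at 55.8%, has the highest. Fold changes are therefore also given after removal of a smooth curve of counts against GC content in each library, called the GC correction; the part of technical causes in the GC trend was not tested. In bulk RNA, fewer cells with a transcript and less of it per cell cannot be told apart.

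In unspun cells the VHL transcript was the most abundant of the members per exon length and that of EGLN3 the least. In Ctrl, the level per kilobase of exon was 24.2 ± 1.02 CPM for VHL (SD, n = 6), 11.0 ± 0.222 CPM for HIF1AN, 9.28 ± 0.47 CPM for BNIP3 and 8.95 ± 0.477 CPM for ARNT. HIF1A followed with 5.40 ± 0.718 CPM per kilobase, EGLN2 with 3.79 ± 0.274, PDK1 with 2.69 ± 0.142, SLC2A3 with 2.24 ± 0.199, EGLN1 with 2.07 ± 0.329 and EGLN3 with 0.554 ± 0.04. BNIP3 and ARNT overlapped in this order, as did SLC2A3 and EGLN1, and the libraries of the other neighbours did not. The levels of EGLN1 and EGLN2 are lower bounds in this respect, because 55.8% and 30.6% of their exon length is shared with another gene on the same strand (ENSG00000287856 and RAB4B-EGLN2), where read pairs were assigned to neither gene; per kilobase outside the overlap they had 4.68 and 5.46 CPM. The paralogs SLC2A14 and BNIP3P1 had mean counts of 0.1 and 2.1 a library. In ctrl300g, which was normalized separately and is not compared with Ctrl by a test, VHL had 37.6 ± 1.49 CPM per kilobase (n = 4), HIF1AN 16.7 ± 0.44, BNIP3 5.16 ± 0.077, HIF1A 4.85 ± 0.776 and EGLN3 0.644 ± 0.039.

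**Figure D1:**
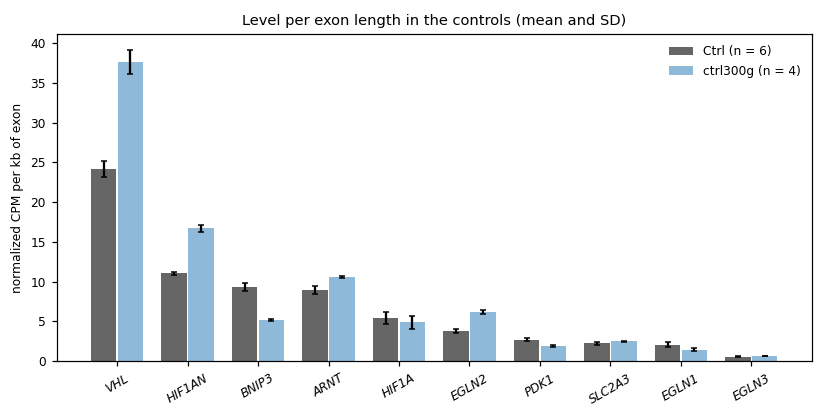
Level of each member in normalized CPM per kilobase of exon (vertical axis) in Ctrl (n = 6) and ctrl300g (n = 4), with the mean and SD. VHL stood highest and EGLN3 lowest in both.

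At 9 g the members moved in both directions: HIF1AN and EGLN2, whose products hold HIF1A back, were higher than at 1 g, and HIF1A, PDK1 and BNIP3 were lower. HIF1AN rose at 8 of 8 exposure times and EGLN2 at 6, while BNIP3 fell at 7, HIF1A at 5 and PDK1 at 4. VHL and SLC2A3 were called at 1 time each, and ARNT, EGLN1 and EGLN3 at none. A gene was called at an adjusted p under 0.05 in edgeR's quasi-likelihood test, with Benjamini-Hochberg adjustment over all genes tested. In all, 14 of the 80 member tests were called up and 18 down, and 12 and 16 with the GC correction, in which 4.8% (hypg5) to 17% (hypg60) of all genes were called up and 4.23% (hypg20s) to 25.5% (hypg60) down. With 3 surrogate variables in each comparison 0 were called up and 1 down, and with them in 1 model of all groups 0 up and 7 down, but few genes of any kind were called in these fits. The shares of all genes were 0% to 3.26% up and 0% to 1.06% down in the first, and 0.184% to 5.08% up and 0.229% to 3.69% down in the second, so the loss of calls was not particular to the members. The values moved as well. HIF1AN at hypg15 was at 0.25 in the first and 0.04 in the second, against 0.33 without surrogate variables. Over the 8 times HIF1AN lay between -0.116 (hypg60) and 0.252 (hypg15) in the first and between -0.075 (hypg60) and 0.044 (hypg15) in the second. At its 6 called times EGLN2 lay between -0.439 (hypg3) and 0.041 (hypg7) in the first. In the second EGLN2 lay between -0.114 (hypg15) and 0.038 (hypg20s). HIF1A at hypg15 turned to 0.475 in the first, and its other called times stayed below 0. Of the 18 calls down, the first kept BNIP3 at hypg20s, and the second kept BNIP3 at hypg20s, hypg75s and hypg3, PDK1 at hypg3 and HIF1A at hypg60.

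By exposure time, 2 members rose and 2 fell at hypg20s, where 6.66% and 8.58% of all genes tested rose and fell. At hypg75s 2 rose and 3 fell, beside 16.8% and 14.4% of all genes, and at hypg3 2 rose and 4 fell, beside 16.9% and 24.4%. At hypg5 1 rose and 0 fell in edgeR's test, beside 4.33% and 1.69%; there 6 members had an unadjusted p under 0.05, 2 of them higher, beside 22.6% of all genes in either direction, and DESeq2 called 1 up and 3 down, beside 4.96% and 3.25%. At hypg7 2 rose and 1 fell, beside 6.64% and 6.19% of all genes, and at hypg9 2 rose and 2 fell, beside 11.3% and 8.32%. At hypg15 2 rose and 3 fell, beside 25.4% and 27.9%, and at hypg60 1 rose and 3 fell, beside 17.1% and 13%. At hypg15 the share of members called was near that of all genes. The median log2 fold change of the members lay between -0.15 (hypg60) and -0.05 (hypg9), and that of all genes between -0.02 and 0.02. The 7 comparisons with Ctrl share its libraries.

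HIF1A, the oxygen-regulated subunit, was lower in most groups spun at 9 g, and lowest after 15 and 60 min. Its lowest, median and highest levels in Ctrl were 23.9, 26.6 and 34.0 CPM. They were 16.6, 20.2 and 27.2 CPM in hypg20s and 15.7, 20.0 and 24.9 CPM in hypg75s. Both ranges still overlapped with that of Ctrl. The values were 14.4, 18.8 and 25.6 CPM in hypg3, 14.3, 19.9 and 32.2 in hypg5, 22.2, 22.8 and 32.5 in hypg7 and 17.0, 22.2 and 27.4 in hypg9, again with overlap. The 5 libraries of hypg15 had 15.9, 21.9, 20.7, 13.8 and 9.90 CPM. In hypg60 the lowest, median and highest were 11.3, 13.4 and 22.8 CPM, against 24.0, 27.2 and 40.0 CPM in Ctrl60. All libraries lay below the control range at hypg15 and at hypg60, and at none of the other 6 times.

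The log2 fold change of HIF1A was -0.43 ± 0.118 (SE; edgeR adjusted p = 0.024) at hypg20s, -0.47 ± 0.116 (edgeR adjusted p = 0.0067) at hypg75s and -0.50 ± 0.14 (edgeR adjusted p = 0.0098) at hypg3. At hypg5, hypg7 and hypg9 it was -0.40, -0.14 and -0.29, with edgeR adjusted p of 0.12, 0.4 and 0.078. It was -0.76 ± 0.16 (edgeR adjusted p = 0.001) at hypg15 and -0.98 ± 0.168 (edgeR adjusted p = 0.00063) at hypg60, where the level was 0.509 times that of Ctrl60. The 708 genes of 36% to 38% GC tested at hypg15, HIF1A among them, had a median log2 fold change of -0.59, and 717 such genes at hypg60 had -0.30. Corrected for GC content, HIF1A was at -0.20 at hypg15 (edgeR adjusted p = 0.062) and at -0.67 at hypg60 (edgeR adjusted p = 1e-05). The calls at hypg20s and hypg3 were lost with it as well, at -0.12 and -0.12, and calls were gained at hypg5 and hypg9, at -0.27 and -0.17. HIF1A was therefore called down with and without the GC correction at hypg75s and hypg60. In hypg5, library 25 stood apart at 32.2 CPM, and without it the log2 fold change was -0.57 (edgeR adjusted p = 0.0063). The call at hypg20s was also lost without library 3 of Ctrl (edgeR adjusted p = 0.056) and with all groups in 1 model (edgeR adjusted p = 0.11), and a call at hypg9 was gained without a filter on low counts, in DESeq2 and with the length correction.

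ARNT, the beta subunit, was not called at any exposure time at 9 g. Its group means lay between 54.0 ± 1.98 CPM (SD, n = 6) in hypg60 and 59.4 ± 1.87 CPM in hypg20s, beside 57.7 ± 3.07 in Ctrl and 58.6 ± 2.60 in Ctrl60, and all ranges overlapped. The log2 fold changes ran from -0.11 (hypg60; edgeR adjusted p = 0.096) to 0.04 (hypg20s). After removal of the GC curve, ARNT was called at hypg60, at -0.14 (edgeR adjusted p = 0.032), as it was with all groups in 1 model, at -0.12 (edgeR adjusted p = 0.032).

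HIF1AN, the asparaginyl hydroxylase also known as factor inhibiting HIF, was higher at each exposure to 9 g, by small amounts. Its lowest, median and highest levels were 149.8, 153.3 and 157.6 CPM in Ctrl. They were 156.5, 166.2 and 176.5 CPM in hypg20s, 163.8, 174.6 and 184.7 in hypg75s and 163.8, 174.0 and 187.2 in hypg3. From hypg75s to hypg15 every spun library exceeded the highest library of Ctrl, and at hypg20s the ranges overlapped. The values were 163.2, 165.2 and 181.5 CPM in hypg5, 159.1, 165.3 and 174.5 in hypg7 and 162.8, 168.5 and 178.1 in hypg9. The 5 libraries of hypg15 had 174.1, 202.3, 191.9, 196.8 and 197.3 CPM. In hypg60, 159.2, 181.1 and 204.0 CPM overlapped with 147.0, 159.4 and 170.7 CPM in Ctrl60.

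For HIF1AN, the log2 fold change was 0.12 ± 0.032 (SE; edgeR adjusted p = 0.025) at hypg20s, 0.33 ± 0.045 (edgeR adjusted p = 4.6e-05) or 1.25-fold at hypg15, and 0.22 ± 0.058 (edgeR adjusted p = 0.011) at hypg60. In the GC-corrected fit, HIF1AN was called up at 7 of 8 times, between 0.10 and 0.39, and was at 0.13 at hypg5 (edgeR adjusted p = 0.058). Genes of 46% to 48% GC had a median log2 fold change of -0.06 at hypg15. With 3 surrogate variables in 1 model of all groups, HIF1AN lay between -0.075 (hypg60) and 0.044 (hypg15), and was called at no time. Without library 3 of Ctrl the calls at hypg20s, hypg5 and hypg7 were lost, at edgeR adjusted p of 0.053, 0.055 and 0.051, and the call at hypg5 was also lost without its library 29 (edgeR adjusted p = 0.07). Calls were also lost with the length correction at hypg5, hypg7, hypg9 and hypg60, without a filter on low counts at hypg20s, hypg5 and hypg7, and with all groups in 1 model at hypg20s and hypg7, so those at hypg75s, hypg3 and hypg15 were the ones kept in all fits but those with surrogate variables.

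**Figure D2:**
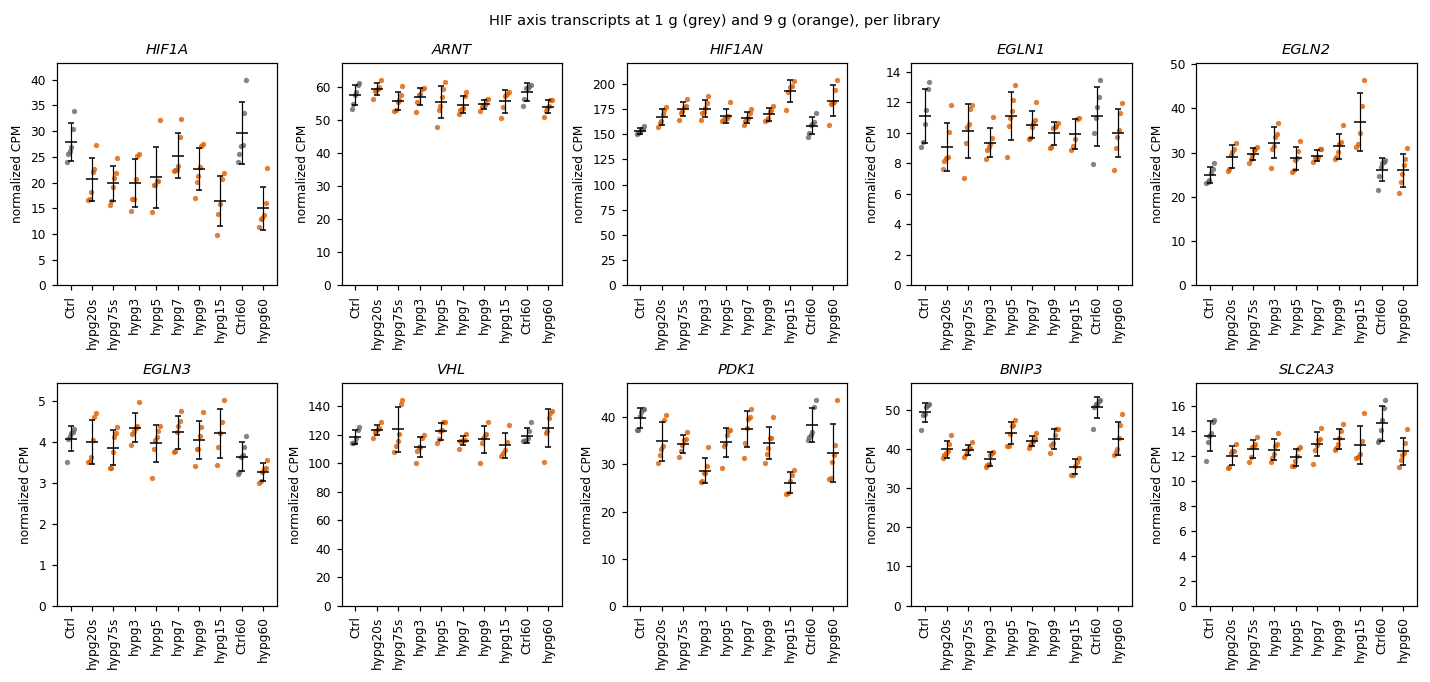
Normalized CPM (vertical axes) of the 10 members in each library of the 9 g experiment, for cells at 1 g and at 9 g, with the mean and SD. In hypg15 (n = 5) HIF1AN lies above all libraries of Ctrl, and HIF1A, BNIP3 and PDK1 lie below them.

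Of the prolyl hydroxylases, EGLN2, which is known not to be induced by hypoxia, was the one called at 9 g. Its lowest, median and highest levels were 23.2, 24.6 and 27.6 CPM in Ctrl, 27.7, 30.1 and 31.3 in hypg75s and 28.6, 31.1 and 36.2 in hypg9. The 5 libraries of hypg15 had 31.9, 40.5, 31.3, 34.4 and 46.5 CPM. All libraries of hypg75s, hypg7, hypg9 and hypg15 lay above those of Ctrl, and the other groups overlapped. After 60 min the range of 20.8 to 30.9 CPM enclosed that of Ctrl60, 21.6 to 28.2 CPM.

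For EGLN2, the log2 fold change was 0.22 ± 0.064 (SE; edgeR adjusted p = 0.034) at hypg20s, 0.27 ± 0.052 (edgeR adjusted p = 0.0015) at hypg75s and 0.34 ± 0.073 (edgeR adjusted p = 0.0018) at hypg3. It was 0.20 ± 0.069 (edgeR adjusted p = 0.091) at hypg5, 0.23 ± 0.054 (edgeR adjusted p = 0.012) at hypg7 and 0.34 ± 0.064 (edgeR adjusted p = 0.0021) at hypg9. The highest value was 0.57 ± 0.097 (edgeR adjusted p = 0.00022) at hypg15, or 1.48-fold, and at hypg60 the edgeR adjusted p was 0.98. With 3 surrogate variables in 1 model of all groups, an alternative chosen after seeing the data, EGLN2 was called down at hypg60, at -0.65 (edgeR adjusted p = 5e-08). At the 6 times called up it lay between -0.114 (hypg15) and 0.038 (hypg20s) in that fit and was not called. With 3 surrogate variables in each comparison it lay between -0.439 (hypg3) and 0.041 (hypg7) at these times, also not called. With the GC correction EGLN2 was called up at 5 times, at 0.37 at hypg15 (edgeR adjusted p = 0.0015), and the call at hypg20s was lost (edgeR adjusted p = 0.063), as it was without library 3 of Ctrl (edgeR adjusted p = 0.077), with total counts only (edgeR adjusted p = 0.052) and with all groups in 1 model (edgeR adjusted p = 0.083). In that model the call at hypg7 was lost too (edgeR adjusted p = 0.052). Genes of 54% to 56% GC had a median of 0.14 at hypg15.

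EGLN1, the main prolyl hydroxylase acting on HIF1A, and EGLN3, a family member that HIF induces, were low and not called at 9 g. EGLN1 had 11.1 ± 1.77 CPM in Ctrl (SD, n = 6) and group means from 9.08 ± 1.58 (hypg20s) to 11.1 ± 1.60 CPM (hypg5) after 9 g. Its lowest log2 fold change was -0.29 ± 0.122 (edgeR adjusted p = 0.11) at hypg20s, and without a filter on low counts it was called down at hypg3, at -0.29 (edgeR adjusted p = 0.042). EGLN3 had 4.08 ± 0.294 CPM in Ctrl and 3.64 ± 0.350 in Ctrl60, and group means from 3.26 ± 0.212 (hypg60) to 4.35 ± 0.345 CPM (hypg3). Its log2 fold changes lay between -0.15 ± 0.091 and 0.07 ± 0.077, and its counts were 74 to 183 a library. The SE, from 0.077 (hypg3) to 0.106 (hypg15), limits the size of a change that could be seen.

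VHL, the substrate recognition subunit of the ligase, had group means between 111.3 ± 6.96 (hypg3) and 124.5 ± 13.3 CPM (hypg60) at 9 g, beside 118.1 ± 5.00 in Ctrl (SD, n = 6) and 119.3 ± 5.30 in Ctrl60. All ranges overlapped. It was called at hypg3, at a log2 fold change of -0.11 ± 0.042 (edgeR adjusted p = 0.046). This call was lost in every other fit run for it, also in those with surrogate variables. It was lost with the GC correction (-0.04, edgeR adjusted p = 0.55), without library 3 of Ctrl, with total counts only, RLE size factors, no filter on low counts, DESeq2, all groups in 1 model and the length correction, at adjusted p between 0.057 (no filter) and 0.93 (length). At hypg15 VHL was called down without library 80, at -0.12 (edgeR adjusted p = 0.031).

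BNIP3, a mitophagy receptor and HIF target, was lower at 9 g with and without the GC correction. Its lowest, median and highest levels in Ctrl were 44.9, 50.0 and 51.6 CPM. They were 37.8, 39.3 and 43.7 CPM in hypg20s, 38.0, 40.1 and 41.8 in hypg75s and 35.4, 37.4 and 39.4 in hypg3. No library of these 3 groups reached the lowest of Ctrl. The values were 40.9, 44.9 and 47.5 CPM in hypg5, 40.4, 42.0 and 44.1 in hypg7 and 39.1, 42.6 and 45.3 in hypg9. The 5 libraries of hypg15 had 37.7, 33.5, 36.8, 35.8 and 33.5 CPM. In hypg60 the values were 38.5, 41.5 and 49.0 CPM, against 45.3, 51.6 and 52.7 CPM in Ctrl60. The ranges were separate at 5 of 8 times and overlapped at hypg5, hypg9 and hypg60.

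On the log2 scale, the fold change of BNIP3 was -0.31 ± 0.044 (SE; edgeR adjusted p = 0.00049) at hypg20s, -0.30 ± 0.037 (edgeR adjusted p = 5.4e-05) at hypg75s and -0.43 ± 0.045 (edgeR adjusted p = 1.7e-05) at hypg3. It was -0.16 ± 0.053 (edgeR adjusted p = 0.084) at hypg5, -0.23 ± 0.04 (edgeR adjusted p = 0.0025) at hypg7 and -0.21 ± 0.046 (edgeR adjusted p = 0.0057) at hypg9. At hypg15 it was -0.48 ± 0.052 (edgeR adjusted p = 6.9e-06), 0.715 times the level of Ctrl, and at hypg60 -0.24 ± 0.07 (edgeR adjusted p = 0.017). With total counts only the call at hypg60 was lost, at -0.20 (edgeR adjusted p = 0.11). Corrected for GC content, BNIP3 was called down at 8 of 8 times, between -0.58 and -0.20, and genes of 50% to 52% GC had a median of 0.06 at hypg15.

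PDK1, the kinase that restrains pyruvate dehydrogenase and a HIF target, fell at hypg75s, hypg3, hypg9 and hypg15. Its lowest, median and highest levels were 37.3, 40.7 and 41.9 CPM in Ctrl, 31.7, 34.7 and 37.0 in hypg75s and 26.2, 28.1 and 33.7 in hypg3. The 5 libraries of hypg15 had 23.9, 28.8, 26.5, 27.7 and 23.7 CPM. These 3 groups lay wholly below Ctrl. The log2 fold change was -0.20 ± 0.049 (SE; edgeR adjusted p = 0.0067) at hypg75s, -0.50 ± 0.065 (edgeR adjusted p = 5.7e-05) at hypg3, -0.20 ± 0.061 (edgeR adjusted p = 0.03) at hypg9 and -0.62 ± 0.067 (edgeR adjusted p = 7.3e-06) at hypg15. After removal of the GC curve, the calls at hypg9 and hypg15 held, at -0.14 and -0.17 (edgeR adjusted p = 0.039 and 0.038), while hypg75s was at 0.00 and hypg3 at -0.16 (edgeR adjusted p = 0.99 and 0.053). The call at hypg9 was lost with total counts only (edgeR adjusted p = 0.11), and those at hypg9 and hypg75s with all groups in 1 model (edgeR adjusted p = 0.087 and 0.059). That model and the length correction called PDK1 down at hypg60, and DESeq2 called it down at hypg20s and hypg5. Genes of 38% to 40% GC had a median of -0.54 at hypg15.

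SLC2A3, the glucose transporter GLUT3, had 13.6 ± 1.21 CPM in Ctrl (SD, n = 6) and group means from 11.9 ± 0.658 (hypg5) to 13.4 ± 0.809 CPM (hypg9) after 9 g. The ranges overlapped with the control at all 8 times. It was called at hypg60, at a log2 fold change of -0.23 ± 0.084 (edgeR adjusted p = 0.049), and -0.24 with the GC correction (edgeR adjusted p = 0.023), but not without library 8 of Ctrl60 (edgeR adjusted p = 0.098), with total counts only (0.12), without a filter on low counts (0.092) or with the length correction (0.12). DESeq2 called SLC2A3 down at hypg20s and hypg5.

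After 5 min at 300 g, 9 of the 10 members were called at each waiting time. HIF1A, EGLN1 and PDK1, the 3 members of lowest GC content, rose, and ARNT, HIF1AN, EGLN2, EGLN3, VHL and SLC2A3 fell. The counts of 3 up and 6 down stood beside 41.4% and 40.1% of all genes at wait1min, 41.7% and 40.6% at wait4min, and 41.8% and 40.5% at wait15min, so most genes were called. The median log2 fold change of the members was -0.26, -0.21 and -0.20 at the 3 times, and that of all genes 0.01 at each. Scaling by total counts alone moved the median of all genes by 0.24 to 0.26, and HIF1AN, EGLN2, VHL and SLC2A3 were then no longer called down at any waiting time, nor EGLN3 at wait4min and wait15min (edgeR adjusted p = 0.18 and 0.49) nor ARNT at wait15min (edgeR adjusted p = 0.11), while VHL was called up at wait4min (0.08, edgeR adjusted p = 0.025) BNIP3 at all 3, and HIF1AN at wait15min (0.07, with an adjusted p just under the threshold of 0.05); the falls below are therefore relative to the median gene. The GC correction moved that median by -0.125 to -0.118 and the length correction by -0.326 to -0.318, and corrected values are given as fitted, not relative to the moved median. The split of all genes moved as well, to 49.7% to 50.9% up and 30% to 30.4% down with total counts only, 30.8% to 31.6% up and 44.2% to 44.7% down with the GC correction, and 31.6% to 31.9% up and 51.5% to 52% down with the length correction. The 3 waiting times share the libraries of ctrl300g.

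HIF1A rose 3.44-fold to 3.58-fold after 300 g, the largest change of a member without the GC correction. Its 4 libraries had 29.0, 22.1, 27.8 and 21.0 CPM in ctrl300g. They had 86.0, 93.3, 90.4 and 91.6 CPM at wait1min, 87.5, 87.8, 89.0 and 84.8 at wait4min and 87.3, 85.5, 88.4 and 85.1 at wait15min. The centrifuged libraries lay far above the control, and the 3 waiting times overlapped. The log2 fold change was 1.84 ± 0.076 (SE; edgeR adjusted p = 2.6e-13) at wait1min, 1.79 ± 0.064 (edgeR adjusted p = 7.5e-17) at wait4min and 1.78 ± 0.069 (edgeR adjusted p = 2.3e-14) at wait15min. The 814 genes of 36% to 38% GC tested at wait1min had a median of 1.70, close to HIF1A. In the GC-corrected fit, HIF1A was at 0.20, 0.23 and 0.21 (edgeR adjusted p = 0.0012, 2.1e-05 and 0.00043), still called up.

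PDK1 had 29.4, 27.6, 28.0 and 26.6 CPM in ctrl300g and 47.2, 48.6, 51.7 and 53.0 CPM at wait1min, without overlap. The log2 fold change was 0.84 ± 0.051 (SE; edgeR adjusted p = 5.2e-11) at wait1min, 0.82 ± 0.043 (edgeR adjusted p = 5.4e-14) at wait4min and 0.89 ± 0.046 (edgeR adjusted p = 1.6e-12) at wait15min. The 1196 genes of 38% to 40% GC had a median of 1.42 at wait1min, above PDK1. With the GC correction the direction turned, to -0.38, -0.34 and -0.28 (edgeR adjusted p = 7.6e-08, 7.9e-10 and 1.3e-06), so the direction of PDK1 at 300 g rests on this choice. With the length correction it was not called, at -0.04, -0.05 and 0.01 (edgeR adjusted p = 0.46, 0.31 and 0.86).

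EGLN1 had 6.41, 7.70, 8.33 and 8.23 CPM in ctrl300g and 11.1, 10.0, 10.2 and 9.39 CPM at wait1min, without overlap. The log2 fold changes of 0.39, 0.47 and 0.47 (edgeR adjusted p = 0.00046, 1.8e-05 and 0.00012) were -0.08, 0.02 and 0.02 with the GC correction and not called, nor was EGLN1 called with the length correction (edgeR adjusted p = 0.35, 0.07 and 0.1). EGLN2 had 39.1, 40.8, 39.0 and 43.1 CPM in ctrl300g and 34.0, 32.4, 35.5 and 34.4 CPM at wait1min, also apart. Its log2 fold changes of -0.26, -0.29 and -0.20 (edgeR adjusted p = 0.00014, 3.1e-06 and 0.0014) became 0.09, 0.04 and 0.13 with the GC correction, the last called up (edgeR adjusted p = 0.0075). The correction thus turned the sign of EGLN2 at the 3 waiting times and that of EGLN1 at wait1min, where EGLN1 still lay above the moved median of all genes, and at the other times of EGLN1 the call was lost.

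**Figure D3:**
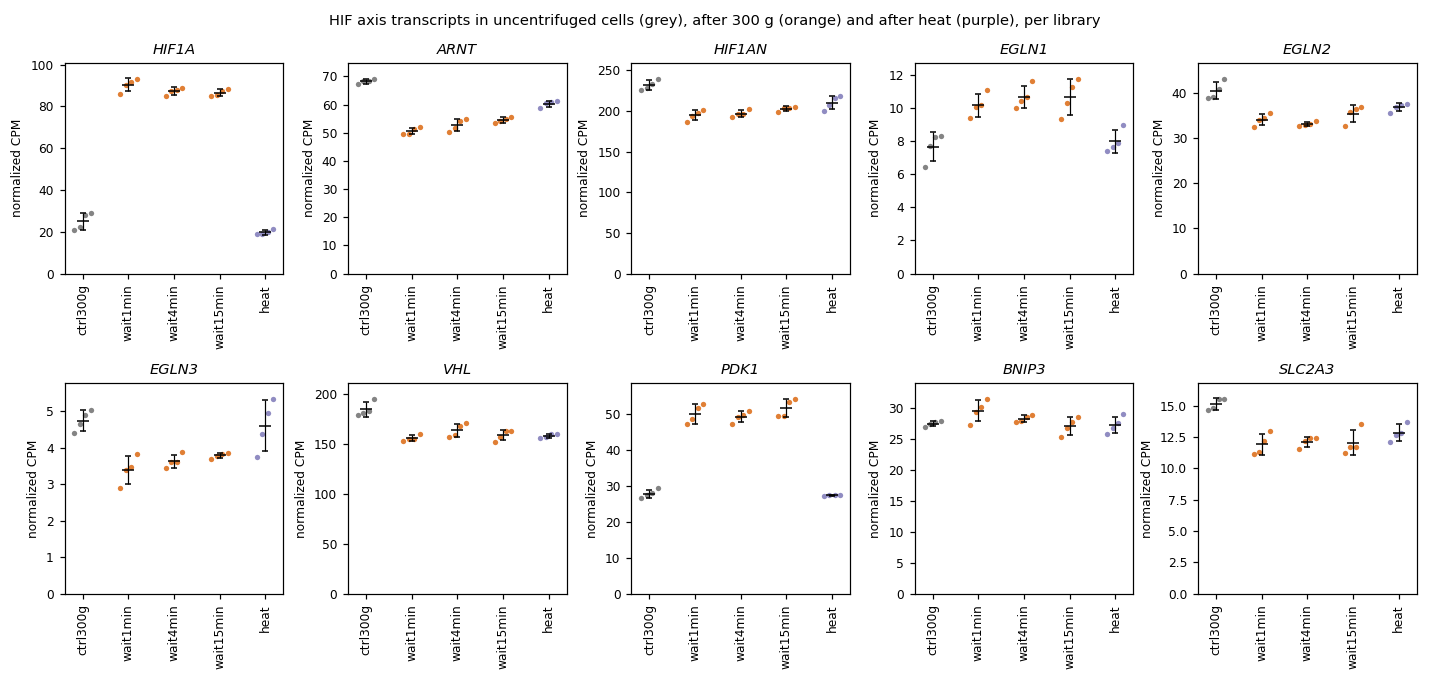
Normalized CPM (vertical axes) of the members in each of the 4 libraries per group: uncentrifuged cells, cells lysed 1, 4 or 15 min after 300 g, and heat, with the mean and SD. HIF1A and PDK1 stand above the control at the 3 waiting times, ARNT, HIF1AN, VHL and SLC2A3 below it, and BNIP3 overlaps with it.

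Relative to the median gene, ARNT, HIF1AN, EGLN3, VHL and SLC2A3 fell at all 3 waiting times with and without the GC correction, and ARNT at wait1min and wait4min and EGLN3 at wait1min were the calls kept with total counts only. ARNT had 68.4, 69.2, 67.1 and 68.2 CPM in ctrl300g and 49.7, 51.9, 49.7 and 51.5 CPM at wait1min, a log2 fold change of -0.44 ± 0.04 (SE; edgeR adjusted p = 1.6e-08), or -0.55 with the GC correction. HIF1AN, which was higher at 9 g, had 239.8, 233.5, 226.0 and 228.3 CPM in ctrl300g and 201.7, 186.5, 197.8 and 194.1 CPM at wait1min, a log2 fold change of -0.26 ± 0.035 (edgeR adjusted p = 2e-06), or -0.40 with the GC correction. In both genes no centrifuged library reached the control. VHL had 182.2, 178.8, 194.8 and 180.4 CPM in ctrl300g and 154.8, 154.4, 152.4 and 159.8 CPM at wait1min, a log2 fold change of -0.25 ± 0.037 (edgeR adjusted p = 5.4e-06), or -0.35 with the GC correction.

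EGLN3 had 4.89, 4.40, 5.05 and 4.64 CPM in ctrl300g and 3.82, 3.47, 3.40 and 2.89 CPM at wait1min, a log2 fold change of -0.50 ± 0.103 (edgeR adjusted p = 0.00027). SLC2A3 had 15.5, 14.6, 14.8 and 15.5 CPM in ctrl300g and 11.1, 13.0, 12.2 and 11.3 CPM at wait1min, a log2 fold change of -0.35 ± 0.066 (edgeR adjusted p = 0.0001). Neither range overlapped with the control. BNIP3, the member that was not called, had 27.0, 27.7, 27.9 and 27.4 CPM in ctrl300g and 29.4, 31.5, 27.3 and 30.1 CPM at wait1min, with overlap. Its log2 fold changes were 0.10, 0.04 and -0.02 (edgeR adjusted p = 0.1, 0.42 and 0.67). Corrected for GC content, BNIP3 was called up, at 0.26, 0.19 and 0.13 (edgeR adjusted p = 8.7e-05, 8.6e-05 and 0.015), and genes of 50% to 52% GC had a median of -0.32 at wait1min. With the length correction it was instead called down at all 3 waiting times, at -0.20, -0.26 and -0.33 (edgeR adjusted p = 0.002, 4.9e-06 and 1.7e-06), where that correction moved the median of all genes by -0.326 to -0.318. At wait1min it was also called up with all groups in 1 model (edgeR adjusted p = 0.043) and without library 55 (edgeR adjusted p = 0.024), so its direction at 300 g is not settled by these fits.

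**Figure D4:**
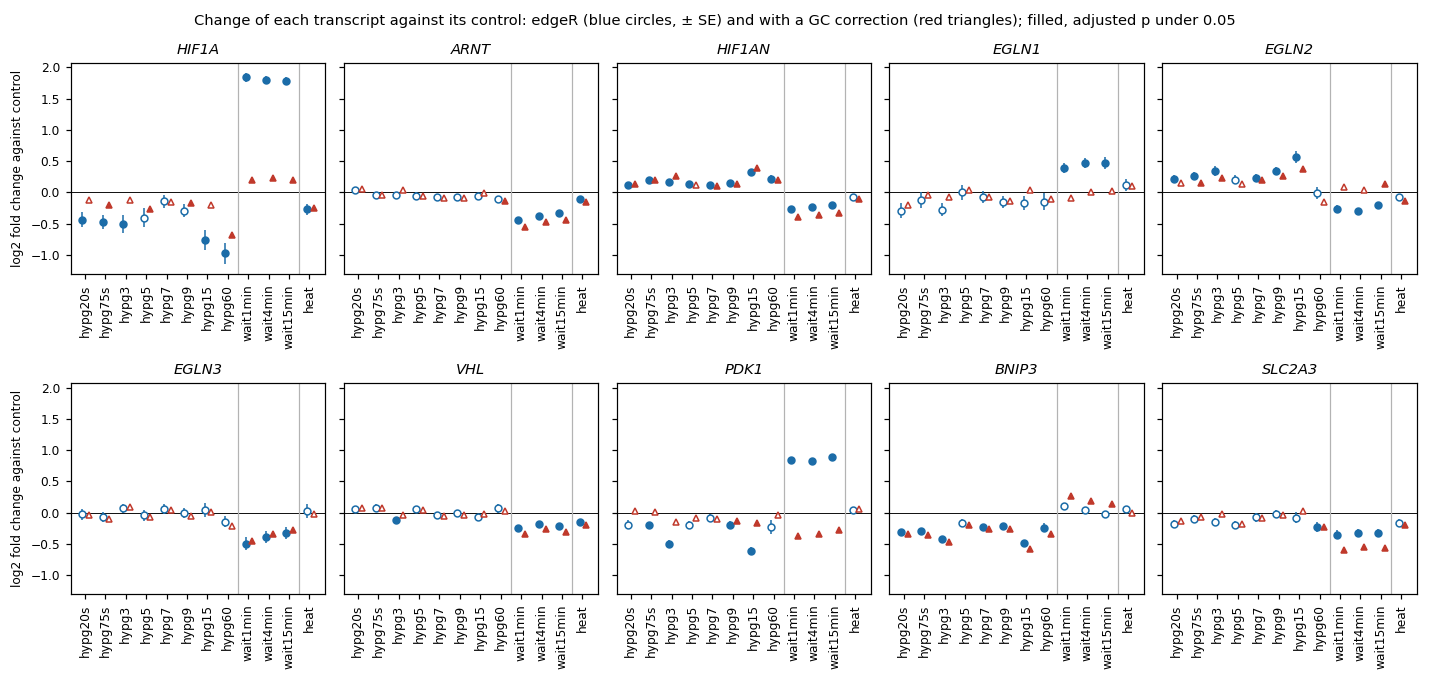
Log2 fold change against control (vertical axis) of each member in the 8 comparisons at 9 g, the 3 at 300 g and heat: circles with SE, edgeR; triangles, with the GC correction; filled symbols had an adjusted p under 0.05. The change of HIF1A at wait1min shrinks from 1.84 to 0.20 and that of PDK1 changes sign, while BNIP3 stays below 0 at 9 g.

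**Figure D5:**
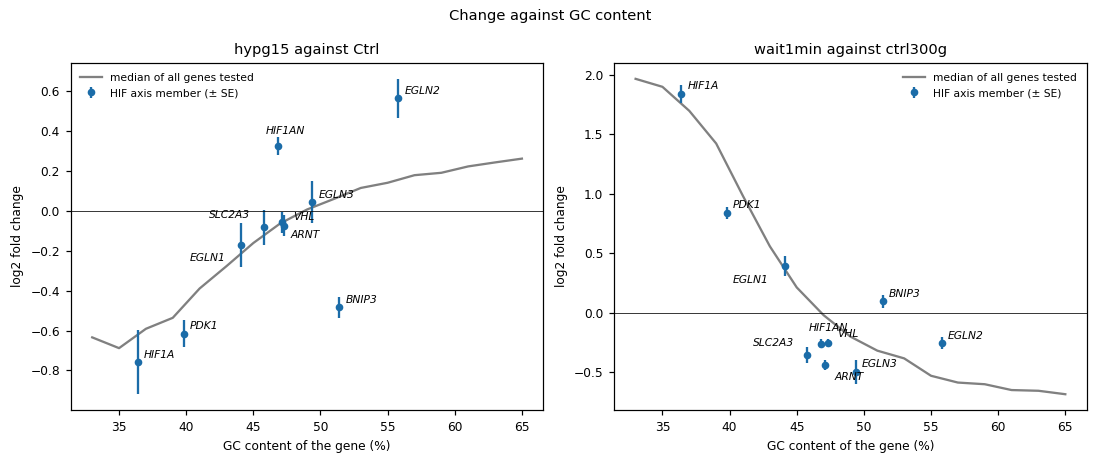
Log2 fold change (vertical axis) at hypg15 and wait1min against the GC content of the gene in percent; the line is the median of all genes tested in steps of 2 percentage points, and points are the members with SE. HIF1A lies near the line in both, and at hypg15 HIF1AN lies above it and BNIP3 below it.

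After heat 0 members rose and 3 fell in edgeR's test, beside 10.6% and 10.2% of all genes. Without adjustment 0 members were higher and 4 lower at p under 0.05, beside 32.2% of all genes in either direction, and DESeq2 called 0 up and 2 down, beside 8.63% and 9.79%. VHL had 182.2, 178.8, 194.8 and 180.4 CPM in ctrl300g and 159.2, 156.2, 159.7 and 155.6 CPM after heat, without overlap, and a log2 fold change of -0.16 ± 0.032 (SE; edgeR adjusted p = 0.0022). HIF1A had 19.0, 19.7, 19.1 and 21.5 CPM after heat, overlapping with 29.0, 22.1, 27.8 and 21.0 CPM in ctrl300g, and a log2 fold change of -0.27 ± 0.087 (edgeR adjusted p = 0.037). ARNT had 60.4, 60.8, 61.3 and 58.7 CPM after heat, below the 68.4, 69.2, 67.1 and 68.2 CPM of ctrl300g, and a log2 fold change of -0.11 ± 0.037 (edgeR adjusted p = 0.045). When each library was left out in turn, VHL was called 8 of 8 times. HIF1A lost its call without library 49 or 51 of ctrl300g or library 65, 66 or 67 of heat, at edgeR adjusted p between 0.06 and 0.15, and ARNT lost its call without any library but 66, at edgeR adjusted p between 0.054 and 0.14. With total counts only the calls of HIF1A and ARNT were lost (edgeR adjusted p = 0.079 and 0.15), and that of ARNT also without a filter on low counts, in DESeq2 and with the length correction. After removal of the GC curve, as with all groups in 1 model, 6 members were called down, HIF1AN (-0.11), EGLN2 (-0.14) and SLC2A3 (-0.20) in addition, where 21.1% and 21.6% of all genes were called down in these fits. Of 4 heat shock genes read as a check of the label, HSPA1B and DNAJB1 rose, at log2 fold changes of 0.63 and 0.17 (edgeR adjusted p = 2.4e-06 and 0.00096), HSPH1 fell, at -0.32 (edgeR adjusted p = 0.0012), and HSPA1A was not called (edgeR adjusted p = 0.3).

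Between controls and between times 0 members were called, in edgeR's test and in DESeq2, but 2 were in other fits. Ctrl60 and Ctrl differed in 0.0124% of all genes, with 1 member (EGLN3, at -0.17) at an unadjusted p under 0.05. For hypg9 against hypg75s, 5% of all genes were called and 0 members had an unadjusted p under 0.05, while VHL was called down with 3 surrogate variables, at -0.35 (edgeR adjusted p = 0.00028), and with these in 1 model of all groups, at -0.18 (edgeR adjusted p = 0.0029). For hypg15 against hypg3, 2.54% of all genes were called, and 1 member, HIF1AN, had an unadjusted p under 0.05, at 0.13 ± 0.049 (edgeR adjusted p = 0.19), and was called up with all groups in 1 model, at 0.14 (edgeR adjusted p = 0.049). HIF1A was at -0.29 ± 0.192 (edgeR adjusted p = 0.48) there. For wait15min against wait1min, 0.149% of all genes were called, and 2 members, ARNT at 0.11 ± 0.036 (edgeR adjusted p = 0.25) and BNIP3 at -0.12 ± 0.053 (edgeR adjusted p = 0.36), had an unadjusted p under 0.05. An order of the exposure times by the size of a member's change is not shown by these tests. Library numbers run from 69 to 80 in hypg3 and hypg15 and from 1 to 48 in all remaining groups at 9 g, and the number range cannot be told apart from these times.

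The changes after 5 min at the 2 g levels were also compared directly, in a test chosen after seeing the data. In a model of Ctrl, hypg5, ctrl300g and wait1min, the change at 300 g minus that at 9 g was called up for 4 members and down for 5, where 72.6% of all genes were called in either direction. HIF1A differed by 2.25 ± 0.197 (SE; edgeR adjusted p = 1.4e-09) on the log2 scale, and by 0.51 with the GC correction (edgeR adjusted p = 3.3e-05). HIF1AN differed by -0.39 ± 0.059 (edgeR adjusted p = 3.2e-06), and by -0.52 with the GC correction (edgeR adjusted p = 1.4e-07). The experiments also differed in cell density, vessel and the time to lysis, which cannot be told apart from the g level.

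Beyond the members, 20 further components of the pathway and 48 known HIF targets were described as lists and not tested as sets. Of the components 18 were tested, and HIF3A and ARNT2 were too low. At 9 g between 1 (hypg5) and 4 (hypg60) rose and between 1 (hypg5) and 6 (hypg15) fell, with a median log2 fold change between -0.08 and -0.02. The shares were 5.56% up and 5.56% down at hypg5, beside 4.33% and 1.69% of all genes, 16.7% and 33.3% at hypg15, beside 25.4% and 27.9%, and 22.2% each at hypg60, beside 17.1% and 13%. With the GC correction between 1 (hypg5) and 4 (hypg60) components rose, and between 2 (hypg20s) and 8 (hypg9, hypg15 and hypg60) fell. In that fit 4.8% and 17% of all genes rose at hypg5 and hypg60. All genes that fell were 4.23% at hypg20s, and 18.8%, 21.5% and 25.5% at hypg9, hypg15 and hypg60. ELOC, elongin C of the VHL ligase, fell at 8 of 8 times, between -0.59 and -0.19, also with the GC correction. CREBBP, a coactivator of HIF, rose at 7 times, with a mean log2 fold change of 0.245 over the 8 times, and at 4 with the GC correction.

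At 300 g 8 or 9 of the 18 components rose and 8 fell, which is 44.4% to 50% and 44.4%, beside 41.4% to 41.8% and 40.1% to 40.6% of all genes. CUL2, the cullin of the VHL ligase, rose, at a mean log2 fold change of 1.47 (0.33 with the GC correction). ELOB, elongin B of the same ligase, and RACK1, a scaffold protein, fell, at means of -1.085 and -0.85 (-0.63 and -0.61 with the GC correction). Subunits of the VHL ligase thus moved in both directions. After heat 2 components rose, P4HTM (0.94, from 0.45 CPM in ctrl300g) and OS9 (0.085, not called with the GC correction), and 2 fell, FBXW7 (-0.26) and CREBBP (-0.15). That is 11.1% each, beside 10.6% and 10.2% of all genes.

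Of the HIF targets, more were called down than up at each of the 8 times at 9 g. Of 41 or 42 tested at 9 g, at most 8 rose, at hypg15, and between 6 (hypg5 and hypg7) and 17 (hypg3) fell, which is 14.3% at hypg5, 14.6% at hypg7 and 41.5% at hypg3, beside 1.69%, 6.19% and 24.4% of all genes. At hypg15 19.5% rose and 31.7% fell, beside 25.4% and 27.9%. The median log2 fold change of the targets lay between -0.14 (hypg3) and -0.03 (hypg15). All genes were also called down more often than up at hypg20s (8.58% and 6.66%), hypg3 and hypg15, and not at the other times. With the GC correction at most 4 targets rose, at hypg15, and between 8 (hypg20s) and 19 (hypg60) fell. In that fit 16.6% of all genes rose at hypg15, and 4.23% fell at hypg20s and 25.5% at hypg60. ANKRD37, an ankyrin repeat protein, fell at 7 times, with a mean of -0.52 over the 8 times (-0.38 with the GC correction). PFKFB3, which makes an activator of glycolysis, fell at 6 times, with a mean of -0.265 (-0.36 with the GC correction). CA9, P4HA2, BHLHE41, HMOX1, LOX and EPO were too low in all comparisons.

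At 300 g 12 or 13 of 41 targets rose and 24 to 26 fell, which is 29.3% to 31.7% and 58.5% to 63.4%, beside 41.4% to 41.8% and 40.1% to 40.6% of all genes, with a median between -0.56 and -0.51. In the GC-corrected fit, 3 to 5 rose and 31 or 32 fell, and the median lay between -0.45 and -0.43, beside 30.8% to 31.6% of all genes up and 44.2% to 44.7% down and a median of all genes between -0.119 and -0.109 in that fit. PDK3, a paralog of PDK1, rose at a mean log2 fold change of 1.61 (1.04 with the GC correction), and ERO1A, an oxidase of the endoplasmic reticulum, at 1.55 (0.22). MIF, a cytokine, and the glycolytic enzyme TPI1 fell, at means of -1.135 and -1.13 (-0.66 and -0.745 with the GC correction). After heat 4 targets rose, among them ALDOA (0.17, not called with the GC correction) and KDM3A (0.16), and 10 fell, among them BHLHE40 (-0.39) and BNIP3L (-0.35), a relative of BNIP3. That is 9.76% and 24.4%, beside 10.6% and 10.2% of all genes.

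In the 9 g experiment, the group means most like those of HIF1A, among 8500 genes with at least 10 CPM, were those of TMEM209, GABPA and AASDHPPT. Pearson's r over 10 group means was 0.998, 0.990 and 0.983, and the GC contents of these genes were 39.9%, 36.4% and 33.9%. Between members, r over the same means was 0.80 for HIF1A and PDK1, 0.86 for PDK1 and BNIP3, and -0.92 for HIF1A and HIF1AN. These values are a description of group means that share libraries, depth and the GC trend.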

How the data were processed

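Per the file headers and the labels, the authors trimmed reads with Trim Galore 0.6.5, aligned them with STAR 2.7.3a and counted read pairs per gene with featureCounts (2.0.1 per the labels, 2.0.3 per the file header) on the reverse strand of Ensembl 104 (GRCh38), without multi-mapping or multi-overlapping reads. They deposited 1 table of raw counts. Its length column, in bases, is of another unit and was written by the authors' counting program. Of its lines 3 were left out, and 60663 genes were used. Groups came from the sample titles; the column names for Ctrl60 mention HEPES, and those for wait1min and wait4min read instant and 1min, and the titles were followed.

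Counts were tested with edgeR 4.0.16 (R 4.3.3; quasi-likelihood F test, TMM, filterByExpr with a minimum count of 10) in the 2 groups of each comparison, adjusted by Benjamini-Hochberg over all genes tested, at a threshold of 0.05 and without a fold change cutoff. CPM values use TMM factors within each experiment. The procedure was tested on simulated data, with genes drawn independently and without a GC trend. That test therefore does not cover the GC trend of the real counts. Alternatives were total counts, RLE factors, no filter, DESeq2 1.42.0, all groups in 1 model, correction for GC content (lowess span 0.3, prior count of 2) or exon length, 3 surrogate variables (sva 3.50.0), library 75 included, and each library left out in turn (300 g, heat and hypg15). Chosen after seeing the data were surrogate variables in 1 model of all groups, the 9 g counts without hypg3 and hypg15, the model of both g levels, and fits without the libraries that stood apart. The members and lists were chosen with earlier results of these data known. All members were named, and from each list and condition the 2 highest and 2 lowest genes by mean log2 fold change among those called with that sign in more than 50% of comparisons; for HIF1A, the 3 genes with the highest Pearson's r of mean log2(CPM + 0.5) among those with a mean of at least 10 CPM. Some genes that this rule names are not reported here.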

Additional observations from a re-analysis of the deposited data

Results flagged for a closer look

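Of 150 combinations of a member and a group, 4 held a library whose gap to the others passed Dixon's 95% limit, and chance gives about 1 in 20. HIF1A was at 32.2 CPM in library 25 of hypg5, where the other libraries had 14.3 to 20.3 CPM. HIF1AN was at 181.5 CPM in library 29 of hypg5, beside 163.2 to 168.2 CPM. EGLN3 was at 3.51 CPM in library 3 of Ctrl, beside 4.07 to 4.32 CPM. BNIP3 was at 45.3 CPM in library 8 of Ctrl60, beside 50.8 to 52.7 CPM.

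The change after 5 min at 300 g (wait1min) was compared with that at 9 g (hypg5) by edgeR's quasi-likelihood test of the difference itself. It differed for 9 members, beside 34.7% of all genes called up and 37.9% called down. On the log2 scale, 300 g minus 9 g, it was 2.25 for HIF1A, 1.04 for PDK1, 0.40 for EGLN1 and 0.26 for BNIP3 (edgeR adjusted p = 1.4e-09, 7.1e-10, 0.028 and 0.0073). It was -0.38 for ARNT, -0.39 for HIF1AN, -0.46 for EGLN2, -0.45 for EGLN3 and -0.30 for VHL (edgeR adjusted p = 0.00054, 3.2e-06, 0.00017, 0.0062 and 0.00012). EGLN1 and EGLN2 were not called with the GC correction (edgeR adjusted p = 0.54 each), and PDK1 turned to -0.27 (edgeR adjusted p = 0.011). SLC2A3, at -0.15 before (edgeR adjusted p = 0.19), was then called at -0.40 (edgeR adjusted p = 0.002). In that fit 8 members differed, beside 23.6% of all genes called up and 37.6% called down. The part of GC content in these differences was not tested beyond this correction.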

How the results depend on the processing

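Of the 80 member tests at 9 g, 14 were called up and 18 down; with 3 surrogate variables 0 and 1 were, and with these in 1 model of all groups 0 and 7, where at most 5.08% and 3.69% of all genes were called up and down in any comparison. Without surrogate variables, the 6 comparisons other than hypg3 and hypg15 held 10 of the 14 calls up and 11 of the 18 down. Of the 30 at 300 g, 9 were called up and 18 down; with total counts only 14 and 3 were, and with the length correction 3 up. After heat 3 were called down, 1 with total counts only, 6 with all groups in 1 model and 6 with the GC correction. Leaving out 1 library gave 10 to 14 up and 16 to 20 down at 9 g, where it was done in turn for hypg15 alone and otherwise for libraries that stood apart (10 and 16 without library 3 of Ctrl, 20 down without library 25 of hypg5). In turn it gave 9 to 10 up and 18 to 18 down at 300 g, and 0 up and 1 to 2 down after heat. Log2 fold changes that changed sign and were called in at least 1 of the 2 fits were as follows; values called in neither are not listed, and the cause was not tested, other than for total counts, which shift all genes of a comparison by the same amount. With 3 surrogate variables, HIF1A was at 0.475 (hypg15), HIF1AN was at -0.083 (hypg75s), -0.049 (hypg3), -0.106 (hypg5), -0.016 (hypg9) and -0.116 (hypg60), EGLN2 was at -0.109 (hypg75s), -0.439 (hypg3), -0.433 (hypg9) and -0.296 (hypg15), PDK1 was at 0.397 (hypg9) and BNIP3 was at 0.246 (hypg9). With these in 1 model of all groups, HIF1AN was at -0.006 (hypg7), -0.034 (hypg9) and -0.075 (hypg60), EGLN2 was at -0.083 (hypg75s), -0.025 (hypg3), -0.051 (hypg7), -0.059 (hypg9) and -0.114 (hypg15), VHL was at 0.033 (hypg3) and BNIP3 was at 0.025 (hypg60). With the GC correction, EGLN1 was at -0.084 (wait1min), EGLN2 was at 0.094 (wait1min), 0.037 (wait4min) and 0.133 (wait15min), PDK1 was at 0.002 (hypg75s), -0.378 (wait1min), -0.342 (wait4min) and -0.279 (wait15min) and BNIP3 was at 0.13 (wait15min). With the length correction, PDK1 was at -0.039 (wait1min) and -0.047 (wait4min) and BNIP3 was at -0.199 (wait1min) and -0.264 (wait4min). With total counts only, HIF1AN was at 0.018 (wait4min) and 0.065 (wait15min), EGLN2 was at 0.065 (wait15min), VHL was at 0.081 (wait4min) and 0.042 (wait15min) and BNIP3 was at 0.238 (wait15min). Of these, BNIP3 was called down with the length correction at both times and also at wait15min, at -0.329, where it had been below 0 before. DESeq2, RLE factors, no filter and library 75 included reversed none of the member values. No paired analysis was possible because library numbers are unique to each sample. The SE of EGLN3 and EGLN1 limits what could be detected for them. The surrogate variables were estimated from the same 59 libraries of the 9 g experiment that were then tested.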
